A study of Drosophila melanogaster with 16 samples.

Results

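The genes described here are 44 transcription factors that specify which kind of neuron a cell becomes in Drosophila melanogaster, most of them homeodomain proteins, with SoxB, Maf, forkhead, Prospero and BTB or zinc finger factors beside them. They were chosen by gene symbol: an exon entry belonged to the set when its gene carried 1 of the 44 symbols, and a gene was reported when at least 1 of its entries lay above 1 CPM (exon counts scaled to the library's summed counts) in at least 4 of the 16 libraries. All 44 were matched among the 17753 genes of the count files, and 41 passed, against 9930 of all genes. The 44 genes held 383 exon entries, of which 265 passed. The 3 others did not pass: eve, which specifies motor neurons in the embryo, the homeobox gene unpg, and vnd, which patterns the embryonic nerve cord. Their highest values over all exons and libraries were 1.09 CPM for unpg, the only one above 1 CPM and in 1 library, 0.765 CPM for eve and 0.680 CPM for vnd. Just inside were exex, above 1 CPM in 8 libraries, and Awh, in 10, each with a highest value of 2.89 CPM.

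Whole heads of adult flies aged 10 to 12 days were measured in 4 groups of 4 libraries, a TRAP and a total mRNA group for each sex. In TRAP, or translating ribosome affinity purification, mRNA is recovered with ribosomes whose RpL10A subunit bears GFP, and total mRNA came from the lysate that went into the pull-down. All groups shared 1 genotype, w/(w or Y) with a UAS-Gal4 insertion over UAS-GFP::RpL10A and with fru P1-Gal4 over a wild type chromosome, so the tag was made where the fru P1 driver is active and no group lacked it. Each library came from a large pool of sex-sorted flies, and n = 4 refers to such pools. The fru P1 transcripts of fruitless mark neurons of the circuit for male courtship, and females have neurons of the same lineages.

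Neuronal identity factors of this kind, called terminal selectors in some systems, act in combination. A homeodomain or related protein is made in a lineage or a postmitotic neuron class, binds the regulatory regions of genes for transmitters, receptors and axon guidance, and is often kept on in the adult so that the cell keeps its type. In the fly head the same factors also serve the eye: ey and toy (both Pax6 genes), so, eya, Optix and dac build the retina, and several of them remain on in photoreceptors, glia or optic lobe neurons.

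Summed exon counts lay between 15353672 and 25419045 per library, so that 3 counts, the limit for an exon at 0, equalled 0.118 to 0.195 CPM. The pull-down was checked on fru, which was higher in TRAP in 8 of 8 exons tested in males and 9 of 9 in females (median log2 fold changes 0.98 and 1.33). Of 11 neuron markers all 11 had a higher exon in TRAP in each sex, and nSyb in both sexes and unc-13 in males had a lower exon as well. All 16 photoreceptor markers had a lower exon, and so did all 10 glia markers tested in males and all 9 tested in females. In females 2 of the photoreceptor markers had a higher exon as well. Summed photoreceptor markers lay at 5657 to 10664 normalised CPM in male TRAP and 3629 to 5997 in female TRAP, against 21351 to 26076 and 16634 to 20378 in total mRNA, so eye RNA was depleted from TRAP but not absent. In tissue of many cell types, fewer cells of a kind and less RNA per cell cannot be told apart.

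Levels were compared between genes as normalised CPM per kilobase over a non-overlapping set of exon entries, averaged over the 16 libraries. The highest were pros, which ends neuroblast divisions and promotes differentiation, at 45.6, the zinc finger gene jim at 43.8 and hth, the Meis-type partner of Hox proteins, at 39.4 CPM per kb. Optix followed at 21.7, Lim1 at 16.1, chinmo at 15.4, vvl at 14.4 and mamo at 14.1. The lowest reported genes were exex, the fly HB9, at 0.768, inv at 0.888, caup at 1.29, ara at 1.38 and en at 1.45 CPM per kb. The first neighbours in this order overlapped: pros ranged from 45.4 to 85.0 CPM per kb in male TRAP, where jim ranged from 37.9 to 80.3. In female total mRNA the order at the top differed, with hth at 35.4 ± 3.5, jim at 32.0 ± 7.9 and pros at 25.6 ± 6.5 CPM per kb (mean ± SD, n = 4).

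**Figure D1:**
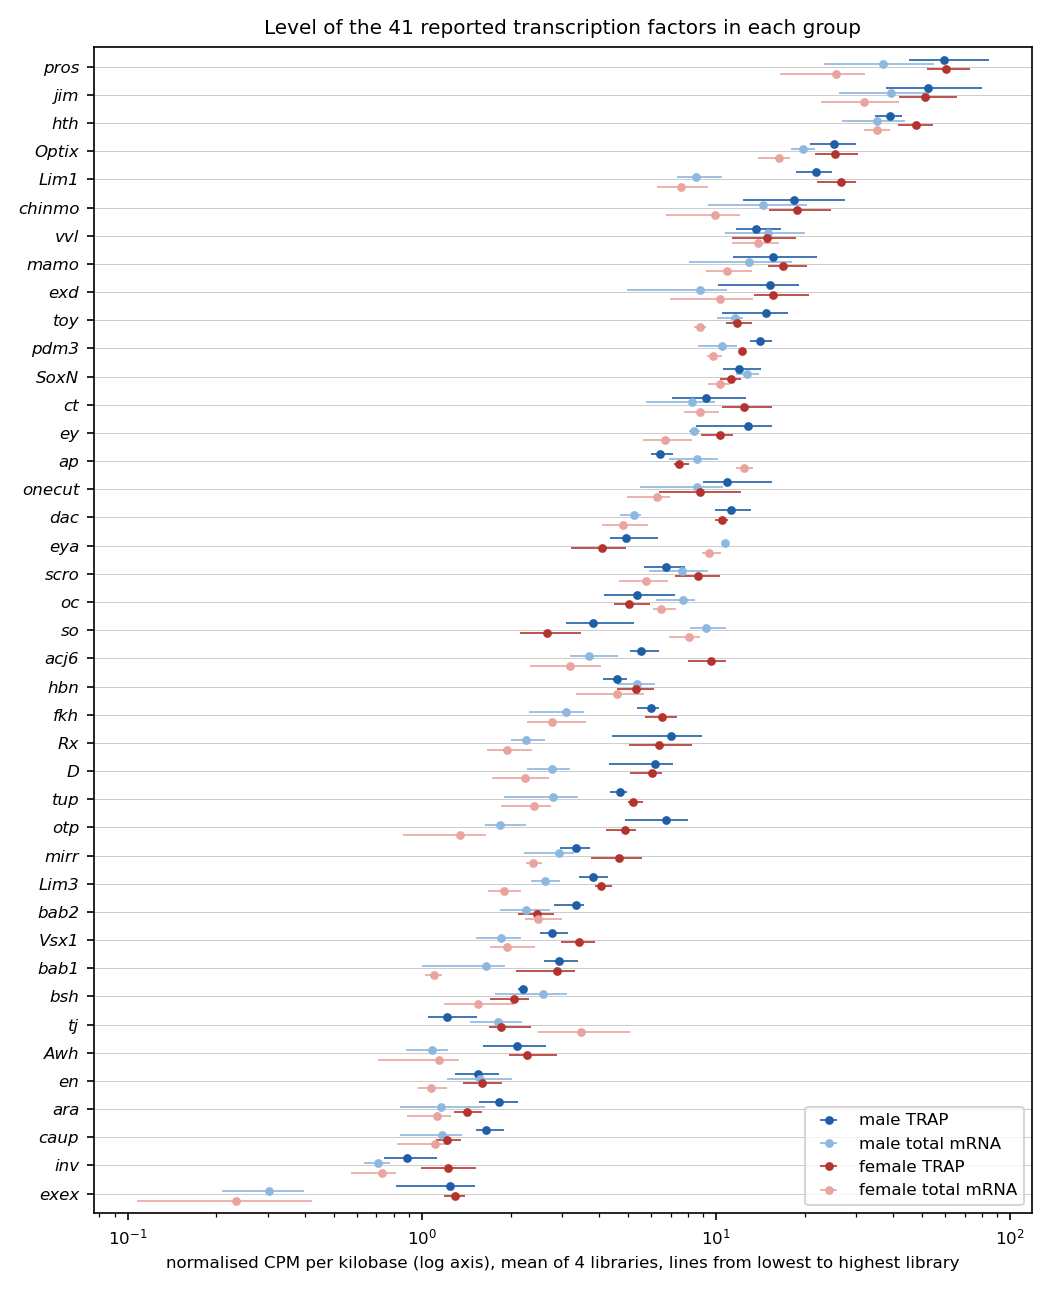
Normalised CPM per kilobase (log axis) of the 41 reported genes in the 4 groups, as means of 4 libraries with lines from the lowest to the highest library, ordered by the mean over all 16. Levels run from 0.768 CPM per kb for exex to 45.6 for pros. The genes so, eya, ap, oc and tj have both TRAP points to the left of the total mRNA points of the same sex.

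Comparing TRAP with total mRNA of the same sex asks which mRNAs are enriched on ribosomes of fru P1 neurons. In males 39 of the 41 genes had a testable exon, and 26 of them (66.7%) had at least 1 exon higher in TRAP at FDR under 0.2, against 42.2% of all genes tested. A lower exon was found in 7 (17.9%), against 37.3% of all genes, and 2 of these, hth and jim, had exons in both directions, so that 31 (79.5%) had any call, against 77.1%. In females 28 of 35 (80.0%) had a higher exon, against 55.5% of all genes, and 5 (14.3%) a lower one, against 42.9%, with jim in both and 32 (91.4%) called at all, against 91.2%. On the representative exon alone (the entry with the highest mean normalised CPM of its gene) 23 of 39 were higher and 4 lower in males, against 38.2% and 30.5% of all genes and 68.6% in either direction, and 28 of 35 were higher and 4 lower in females, against 52.3% and 31.4% and 83.7% in either direction. The median log2 fold change of the representative exon was 0.48 in males and 0.81 in females, against 0.14 and 0.33 over all genes. The same median was 0.80 and 1.40 for the 11 neuron markers. How far the enrichment of the identity factors follows that of neurons in general was not tested.

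The male split depends on the scaling. With library totals in place of TMM factors 29 genes were higher and 2 lower, which moved the higher share of calls from 78.8% to 93.5%. Among the calls of all genes the higher share moved from 53.1% to 67.7%. The lower calls that were lost were those of ap, hth, jim, oc and tj, and chinmo, ct and mirr were then higher in males as well. The tests are unpaired. In females, where libraries of the same replicate number varied together, a quasi-likelihood fit with the replicate as block called 30 higher and 8 lower. It added inv (0.33, FDR 0.18) and vvl (both entries, with 0.22 and FDR 0.091 on the one with the lower FDR) to the higher genes. To the lower ones it added oc (-0.22, FDR 0.096) and 1 entry each of ct (-0.38, FDR 0.14) and pdm3 (-0.32, FDR 0.18), so that ct and pdm3 were called in both directions. The same fit without the block already called inv and oc (FDR 0.18 for both). In males the block fit, where total mRNA replicate 3 and TRAP replicate 5 have no partner, called 28 higher and 10 lower. To the higher genes it added chinmo (2 of 9 entries, lowest FDR 0.077) and mirr (0.37, FDR 0.085). To the lower ones it added mamo (4 of 16 entries, lowest FDR 0.033), onecut (2 of 5, FDR 0.054) and toy (1 of 8, FDR 0.19). The genes mamo, onecut and toy were then called in both directions.

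Among genes tested in both sexes, 22 were higher in both: D, Lim1, Lim3, Optix, Rx, Vsx1, acj6, bab1, bab2, caup, dac, exd, ey, fkh, hth, jim, mamo, onecut, pdm3, pros, toy and tup. Over summed non-overlapping entries, bab2 (0.01, FDR 0.96) and caup (0.15, FDR 0.54) were not called in females. In males hth (0.16, FDR 0.39) and mamo (0.30, FDR 0.28) were not called that way. The others of the list stayed higher in both sexes, and ara, inv and otp were then higher in both as well. Lower in both were 5: ap, eya, jim, so and tj, of which eya and so were still lower in both sexes with library totals. SoxN, chinmo, ct, hbn, mirr and scro passed in females only and inv, ara, en and otp in males only, of which ara, en and otp were too low in female libraries to be tested. A call in 1 sex is not shown to differ from the other sex, and the test of that difference is given further on. No exon of bsh (tested in males only) or vvl was called.

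**Figure D2:**
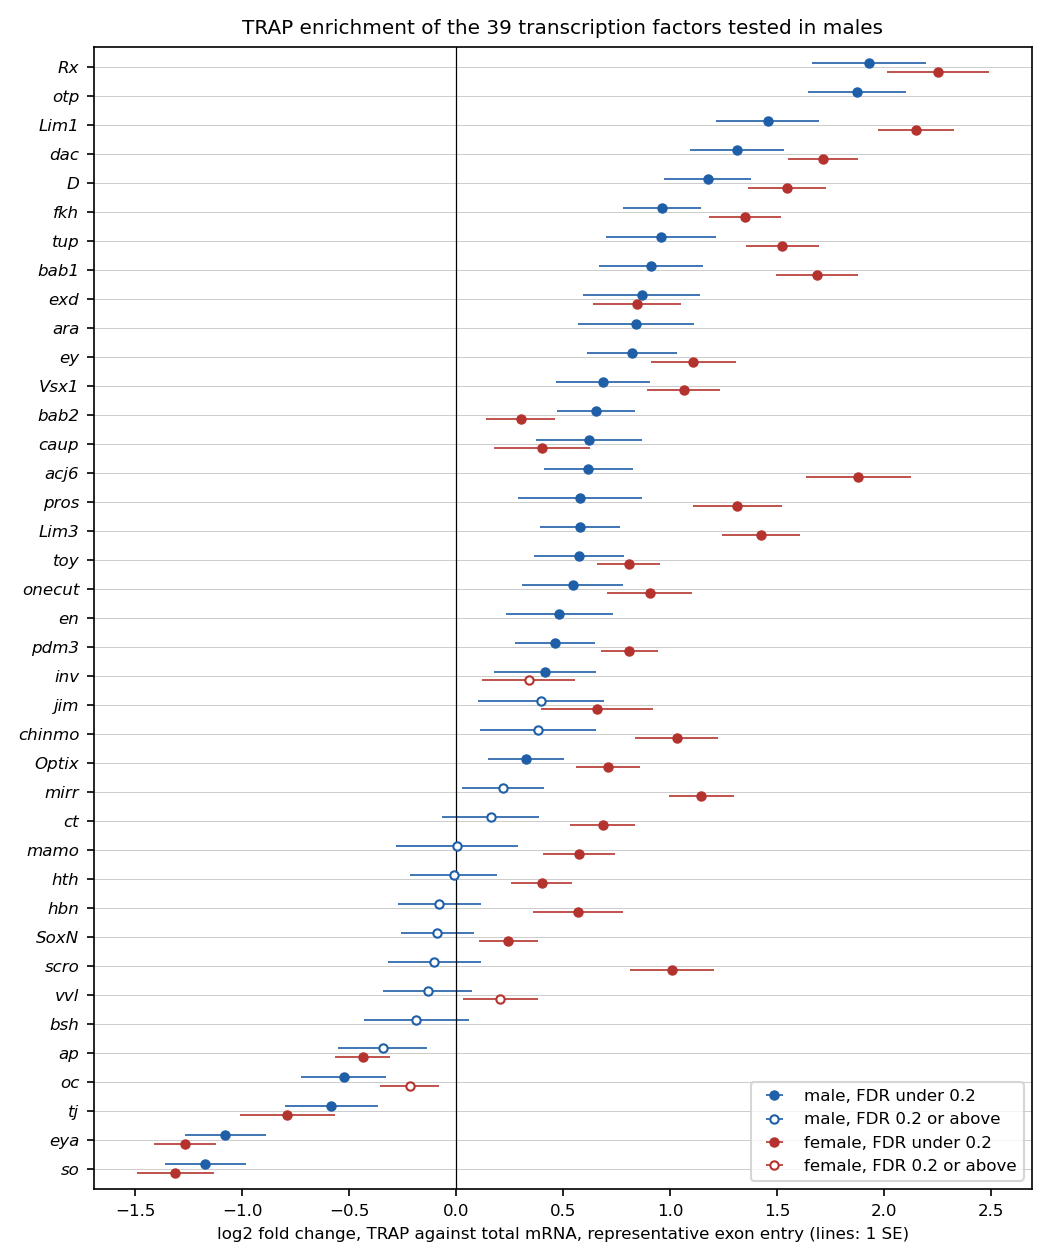
Log2 fold change of TRAP against total mRNA on the representative exon entry of each of the 39 genes tested in males, with male and female values side by side, lines of 1 SE and open symbols for FDR of 0.2 or above. Rx is at the top in both sexes (1.93 and 2.25) and so and eya are at the bottom (-1.17 and -1.31, -1.08 and -1.27).

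The retinal determination genes split by direction. Of the 6, ey, toy, Optix and dac had higher exons in both sexes and so and eya lower ones. dac (FBgn0005677, last exon at chr2L:16466512-16467754 of dm6, minus strand, coding and 3′ UTR), a transcriptional cofactor of the mushroom body as well as of the eye, had 24.4, 27.5, 27.7 and 23.5 normalised CPM in male TRAP replicates 1, 2, 4 and 5 and 7.12, 13.8, 12.6 and 8.10 in male total mRNA replicates 1 to 4. Female TRAP replicates 2 to 5 gave 24.3, 22.8, 27.7 and 33.2, and female total mRNA 8.34, 8.65, 7.46 and 10.8. The groups of each sex did not overlap, and the log2 fold change was 1.31 ± 0.22 in males (SE, FDR 2.3e-07) and 1.72 ± 0.16 in females (FDR 1.9e-19).

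so (FBgn0003460, chr2R:7433721-7434872, plus strand, coding and 3′ UTR), the Six-family homeodomain protein of the eye, went the other way. Male TRAP had 4.91, 5.96, 4.58 and 6.53 normalised CPM and male total mRNA 14.0, 11.5, 11.6 and 12.5. In females TRAP had 3.41, 5.22, 3.61 and 4.59 and total mRNA 10.8, 12.4, 11.9 and 10.07. Every TRAP library lay below every total mRNA library in both sexes, with log2 fold changes of -1.17 ± 0.19 (FDR 1.3e-07) and -1.31 ± 0.18 (FDR 3.4e-10).

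eya (FBgn0000320, chr2L:6528575-6530329, minus strand, 5′ UTR and coding), the phosphatase that so binds, moved with it. Its values were 7.96, 7.80, 9.20 and 11.6 in male TRAP against 22.4, 18.9, 15.5 and 20.4 in male total mRNA, and 5.24, 6.82, 7.83 and 7.36 in female TRAP against 18.0, 19.2, 16.7 and 16.4 in female total mRNA. All 4 entries tested were lower in each sex, the representative one by -1.08 ± 0.19 (FDR 1.3e-06) and -1.27 ± 0.15 (FDR 4.7e-13). Photoreceptor markers fell beside so and eya, with median log2 fold changes of -1.64 in males and -1.78 in females, and their part in these 2 genes was not tested.

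The Pax6 genes ey and toy, which mark the Kenyon cells of the mushroom body in the adult brain, sit on chromosome 4 and rose together. ey (FBgn0005558, chr4:720322-721173, plus strand, coding and 3′ UTR) had 24.7, 33.8, 33.0 and 17.8 normalised CPM in male TRAP against 15.4, 16.1, 16.8 and 13.8 in male total mRNA, and 19.8, 16.7, 28.4 and 24.6 in female TRAP against 8.19, 9.92, 12.0 and 14.5 in female total mRNA. The groups did not overlap in either sex, although male TRAP replicate 5 came close. The log2 fold changes were 0.82 ± 0.21 (FDR 0.001) and 1.11 ± 0.20 (FDR 9.4e-07) for ey and 0.57 ± 0.21 (FDR 0.027) and 0.81 ± 0.15 (FDR 4.2e-06) for toy. Optix had 0.33 ± 0.18 (FDR 0.16) and 0.71 ± 0.15 (FDR 6.1e-05), and the male call on this entry was lost without total mRNA replicate 2 or 4 or TRAP replicate 2 or 4 (FDR 0.29 to 0.39).

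Of the 5 paired-like genes 3, Rx, otp and Vsx1, were higher in males, and Rx had the largest fold change of the genes tested. Rx (FBgn0020617, chr2R:20936037-20937030, plus strand, coding and 3′ UTR), the fly retinal homeobox gene, which acts in brain development rather than in the fly eye itself, had 11.1, 17.4, 16.3 and 7.86 normalised CPM in male TRAP against 2.73, 3.53, 4.54 and 3.11 in male total mRNA. Female TRAP had 8.69, 9.11, 17.4 and 14.4 against 2.34, 2.23, 3.23 and 3.31. The lowest TRAP library thus lay above the highest total mRNA library in both sexes. The log2 fold changes, 1.93 ± 0.27 (FDR 1.8e-10) and 2.25 ± 0.24 (FDR 9.8e-17), led the genes tested in each sex. The filter left otp in females and exex in both sexes out of this ranking, although their groups were far apart.

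otp (FBgn0015524, chr2R:20883625-20884761, minus strand, coding and 3′ UTR), the orthopedia homeobox gene and a close neighbour of Rx on chromosome 2R, had 13.1, 16.1, 14.6 and 9.0 normalised CPM in male TRAP against 3.93, 4.09, 3.76 and 2.71 in male total mRNA, a log2 fold change of 1.87 ± 0.23 (FDR 1.1e-12). Female TRAP had 10.15, 8.47, 12.2 and 11.1 and female total mRNA 1.27, 2.33, 2.30 and 2.17. The female entry was above 2 CPM in too few raw libraries for the study's filter, although its groups did not overlap, and with CPM above 1 in at least 4 libraries as the filter otp was higher in females too. Vsx1, a visual system homeobox gene, had log2 fold changes of 0.68 ± 0.22 (FDR 0.011) and 1.06 ± 0.17 (FDR 1.7e-07).

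The other paired-like genes differed from these. hbn, homeobrain, was called in females only, with -0.08 ± 0.19 in males (FDR 0.78) and 0.57 ± 0.21 in females (FDR 0.021). oc, orthodenticle, which patterns the ocelli and the anterior brain and sets rhodopsin choice in photoreceptors, had 25.6, 22.7, 19.8 and 34.7 normalised CPM in male TRAP against 28.6, 38.3, 41.9 and 39.2 in male total mRNA. Replicate 5 of male TRAP reached into the range of total mRNA, and the log2 fold change was -0.53 ± 0.20 (FDR 0.034), or -0.24 and not called with library totals (FDR 0.34). In females it was -0.22 (FDR 0.22, and 0.096 with the replicate block), with 21.8, 21.2, 26.1 and 29.8 in TRAP and 28.9, 30.5, 28.8 and 35.2 in total mRNA. Over its summed non-overlapping entries oc was called lower in both sexes, in females by -0.36 (FDR 0.009). DESeq2 and RLE factors also called it lower in females, and library totals did not.

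**Figure D3:**
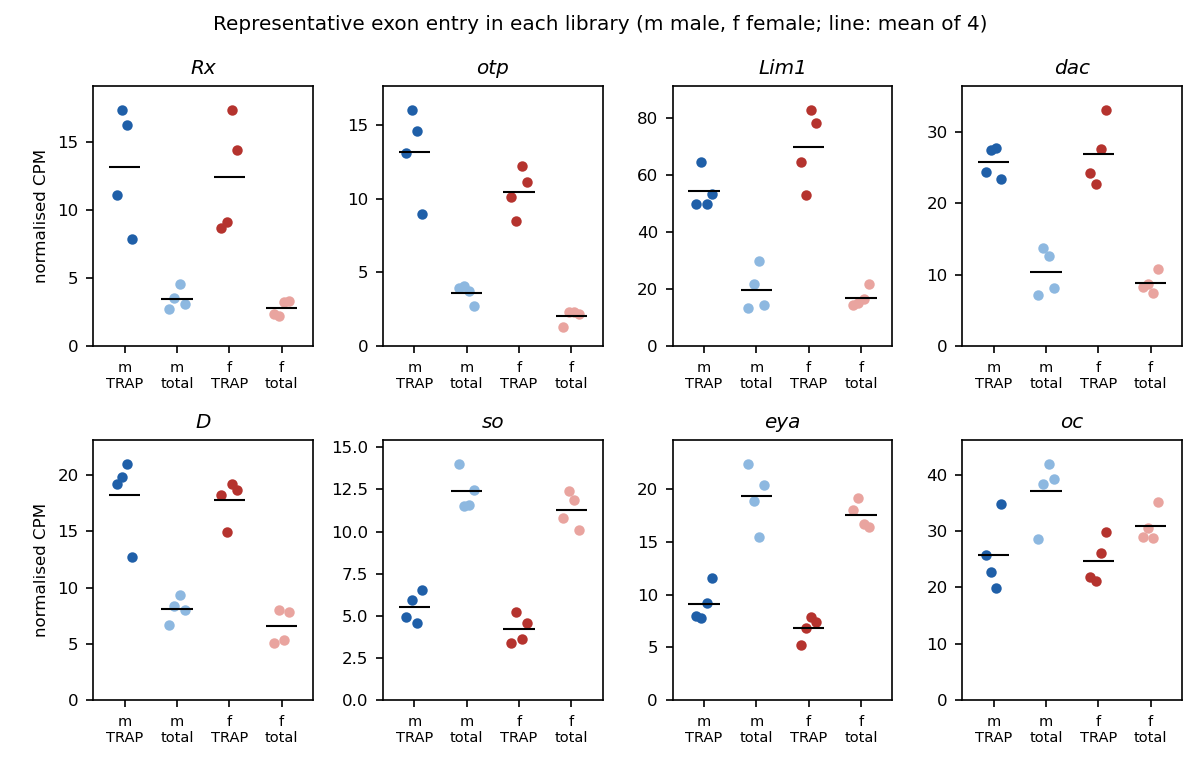
Normalised CPM of the representative exon entry in every library for 5 genes with large positive changes (Rx, otp, Lim1, dac, D) and 3 with negative ones (so, eya, oc), with axes from 0, each point a library and each line the mean of 4. Points of TRAP and total mRNA of the same sex are apart for all but oc, where male TRAP reaches 34.7 and male total mRNA starts at 28.6.

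LIM-homeodomain proteins write a combinatorial code for axon paths in motor neurons and interneurons. Lim1 (FBgn0026411, chrX:8756539-8758404, minus strand, coding and 3′ UTR) had 49.9, 64.3, 49.9 and 53.1 normalised CPM in male TRAP against 13.2, 21.6, 29.8 and 14.5 in male total mRNA, and 64.3, 53.1, 82.8 and 78.2 in female TRAP against 14.3, 15.1, 16.3 and 21.7 in female total mRNA. All 7 exons tested in males and all 4 tested in females were higher, with log2 fold changes of 1.46 ± 0.24 (FDR 1.1e-07) and 2.15 ± 0.18 (FDR 1.6e-26) on the representative entry. Its level of 16.1 CPM per kb was above those of Rx, dac and D. Among the genes tested in both sexes, these were the others with log2 fold changes above 1 in each sex.

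tup (islet) and Lim3, which together distinguish classes of motor neurons, were also higher. tup changed by 0.96 ± 0.26 (FDR 0.0014) and 1.52 ± 0.17 (FDR 1.6e-14). Lim3 (FBgn0002023, chr2L:19079256-19080496, minus strand, coding and 3′ UTR) had 9.61, 8.14, 9.43 and 8.71 normalised CPM in male TRAP against 6.21, 5.59, 6.85 and 5.51 in male total mRNA, and 9.92, 9.91, 12.6 and 10.07 in female TRAP against 3.10, 4.62, 4.48 and 4.91 in female total mRNA. The groups were apart in both sexes, by 0.58 ± 0.19 (FDR 0.014) and 1.42 ± 0.18 (FDR 1.8e-11).

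ap, apterous, the LIM gene of the dorsal wing and of peptidergic and other interneurons, was the exception of the family. ap (FBgn0267978, chr2R:5706202-5708106, minus strand, coding and 3′ UTR) had 22.0, 21.8, 28.3 and 25.7 normalised CPM in female TRAP against 33.5, 33.8, 37.1 and 38.4 in female total mRNA, with no overlap and a log2 fold change of -0.44 ± 0.13 (FDR 0.0062). In males 22.0, 19.9, 16.9 and 21.3 in TRAP stood against 15.6, 27.7, 31.2 and 27.3 in total mRNA, where replicate 1 of total mRNA was below all TRAP libraries, and the representative entry was not called (-0.34, FDR 0.20). A second, overlapping entry of the last exon was called in males (-0.48, FDR 0.064), but not with library totals (-0.20, FDR 0.52), which also left the female representative entry uncalled (-0.04, FDR 0.84) though ap kept a lower call in females. Awh, arrowhead, was too low for the filter, with 1.34 to 2.27 normalised CPM in male TRAP against 0.414 to 1.25 in male total mRNA and 1.44 to 2.56 against 0.510 to 0.933 in females.

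Of the POU factors, acj6 and pdm3 were higher in both sexes. With the study's filter, TMM factors and all libraries, the exact test called vvl in neither sex. In females vvl was higher with the replicate block and with library totals (0.60 and FDR 0.0042 on the entry with the lower FDR). It was also higher there without a filter on low counts and without TRAP replicate 3. acj6, which selects odorant receptors in olfactory neurons and targets in the antennal lobe, is described with the sexes below. pdm3, another POU gene of olfactory neurons, changed by 0.46 ± 0.19 (FDR 0.052) and 0.81 ± 0.13 (FDR 8.5e-07), with 22.2 to 25.2 normalised CPM in male TRAP and 13 to 21.3 in male total mRNA. vvl (drifter), which marks projection neurons of another lineage than acj6 does, had 55.9 to 79.3 normalised CPM in male TRAP, against 51.2 to 95.7 in male total mRNA, and 54.2 to 89.4 against 54.2 to 78.3 in females. Its groups overlapped almost wholly, and its log2 fold changes were -0.13 ± 0.21 and 0.21 ± 0.18.

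The engrailed pair lay at the lower end of what could be measured. en (FBgn0000577, chr2R:11524006-11524847, minus strand, coding and 3′ UTR), a selector of posterior compartments that is kept on in neurons of some lineages, had 2.58, 2.74, 2.58 and 1.86 normalised CPM in male TRAP against 1.53, 2.07, 1.76 and 1.68 in male total mRNA. TRAP replicate 5 fell into the range of total mRNA, and the log2 fold change was 0.48 ± 0.25 (FDR 0.13). With 1 library left out its entry passed the filter in 3 of 8 fits and was called in 1 of them, not without male total mRNA replicate 1 (FDR 0.28) or 4 (FDR 0.25). The sum over the non-overlapping entries of en gave -0.01 in males and 0.57 in females, where it was called higher (FDR 0.0059). Female values of the representative entry, which the filter left untested, were 1.98, 2.13, 3.06 and 3.21 in TRAP and 1.12, 1.86, 1.62 and 1.72 in total mRNA and did not overlap. Its neighbour inv had 2.33, 2.7, 2.51 and 2.55 in male TRAP against 2.19, 1.55, 2.12 and 1.76, a change of 0.41 ± 0.24 (FDR 0.18). Its entry too passed the filter in 3 of the 8 fits with 1 library left out, and it was called in 1 of them, without total mRNA replicate 3, but not without replicate 2 (FDR 0.42) or 4 (FDR 0.33). In females inv changed by 0.34 (FDR 0.20). Over its summed entries inv was called higher in both sexes, in females by 0.74 (FDR 0.00018).

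Other NK-type and related genes were sparse. scro, a relative of vertebrate Nkx2.1, was called in females only, with 9.36, 11.0, 13.1 and 14.8 normalised CPM in TRAP against 4.58, 6.37, 6.47 and 8.28 in total mRNA (1.01 ± 0.20, FDR 7.6e-06), while male TRAP had 9.35, 9.18, 8.70 and 6.36 against 7.82, 10.5, 11.2 and 6.75. bsh, which defines classes of medulla and lamina neurons, had 1.87 to 2.34 in male TRAP against 2.04 to 3.23 in male total mRNA and 1.94 to 2.89 in female TRAP against 1.07 to 1.86 in female total mRNA. exex, a motor neuron factor, was tested nowhere against total mRNA under the main filter. Its values nevertheless did not overlap between fractions, at 1.30 to 2.43 against 0.303 to 0.732 in males and 1.86 to 2.50 against 0.102 to 0.531 in females.

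The Iroquois genes ara, caup and mirr, neighbouring copies on 3L that pattern the dorsal eye and sensory organs, did not move alike. In males ara rose by 0.84 ± 0.27 (FDR 0.008) and caup by 0.62 ± 0.25 (FDR 0.038), with 3.13 to 3.88 against 1.16 to 2.87 normalised CPM for ara and 3.97 to 5.75 against 1.76 to 3.68 for caup, while mirr was not called (0.22 ± 0.19). In females mirr had 14.4, 12.5, 19.5 and 16.4 in TRAP against 7.32, 7.16, 7.84 and 8.22 in total mRNA (1.15 ± 0.15, FDR 6.3e-10), and caup 4.57, 3.2, 4.00 and 3.27 against 3.46, 3.24, 2.30 and 3.38 (0.40 ± 0.22, FDR 0.14). The female call of caup was lost without total mRNA replicate 3 or 4 or TRAP replicate 2 (FDR 0.24 to 0.41). With 1 library left out, the ara entry passed the filter in 3 of 8 male fits and was called in all 3.

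exd, the Pbx-type cofactor of Hox proteins, rose by 0.87 ± 0.27 (FDR 0.0067) and 0.84 ± 0.21 (FDR 0.00033). In males the values were 55.7, 45.4, 46.3 and 29.4 normalised CPM in TRAP and 11.3, 31.0, 26.8 and 28.1 in total mRNA, so that replicate 5 of TRAP met the range of total mRNA. hth, which carries exd into the nucleus, was near 0 on its representative entry in males (-0.01 ± 0.20) and rose in females (0.40 ± 0.14, FDR 0.018). Its values were 182, 198, 154 and 190 in male TRAP against 134, 202, 229 and 164 in male total mRNA, and 205, 177, 234 and 244 in female TRAP against 162, 160, 186 and 194 in female total mRNA.

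The SoxB genes D (Dichaete) and SoxN act together in neuroblasts. D (FBgn0000411, chr3L:14175610-14178492, minus strand, 5′ UTR, coding and 3′ UTR) had 19.2, 19.9, 21.0 and 12.7 normalised CPM in male TRAP against 6.66, 8.39, 9.33 and 7.98 in male total mRNA, and 18.2, 14.9, 19.2 and 18.7 in female TRAP against 5.09, 7.96, 5.35 and 7.84. Groups did not overlap, and the log2 fold changes were 1.17 ± 0.20 (FDR 1.1e-06) and 1.55 ± 0.18 (FDR 1.3e-13). SoxN was not called in males (-0.09 ± 0.17) and changed by 0.24 ± 0.14 in females (FDR 0.17), a call that was lost in 6 of the 8 fits without 1 library (FDR 0.26 to 0.42).

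Of the Maf, forkhead and Prospero genes, fkh and pros were higher and tj lower in both sexes. fkh, a FoxA factor, changed by 0.96 ± 0.18 (FDR 9.1e-06) and 1.35 ± 0.17 (FDR 3.5e-12), with 23.0 to 27.5 against 9.89 to 15.2 normalised CPM in males and 24.7 to 31.7 against 9.77 to 15.5 in females. pros had 821, 1117, 794 and 1639.9 in male TRAP and 428, 702, 1129 and 644 in male total mRNA, which overlapped (0.58 ± 0.29, FDR 0.094), and 971, 1009.9, 1179 and 1404 in female TRAP against 309, 508, 526 and 624, which do not (1.31 ± 0.21, FDR 3.6e-09). The male call of pros on this entry was lost without total mRNA replicate 1 or 4 or TRAP replicate 5 (FDR 0.23 to 0.35), though 12 of its 16 exons were higher.

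tj, traffic jam, a large Maf factor of gonadal somatic cells and of subsets of neurons, had 3.72, 3.67, 4.15 and 5.39 normalised CPM in male TRAP against 5.09, 6.71, 5.94 and 7.66 in male total mRNA, and 5.88, 5.97, 5.95 and 8.19 in female TRAP against 11.4, 8.65, 10.4 and 17.8. Its single exon (FBgn0000964, chr2L:19464267-19467758, plus strand) changed by -0.58 ± 0.22 (FDR 0.03) and -0.79 ± 0.22 (FDR 0.002). Male TRAP replicate 5 overlapped male total mRNA, and the female groups were apart. With library totals only, the male value was -0.30 and was not called.

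Of the 5 BTB and zinc finger genes all 5 had a higher exon in females and 4 in males. On the representative exon 5 were higher in females and 2, bab1 and bab2, in males, where jim (0.40, FDR 0.29), mamo (0.00, FDR 1) and chinmo were not called, and jim also had lower exons in both sexes. bab1 (FBgn0004870, chr3L:1036369-1039233, minus strand, coding and 3′ UTR), a bric-a-brac factor known for sex-specific abdominal pigmentation and for antennal and leg segments, had 12.0, 16, 13.9 and 12.2 normalised CPM in male TRAP against 3.73, 7.96, 9.09 and 8.02 in male total mRNA, and 12.6, 9.11, 16.6 and 16.9 in female TRAP against 4.48, 4.35, 4.91 and 4.65. Both contrasts were without overlap (0.91 ± 0.24, FDR 0.0014, and 1.69 ± 0.19, FDR 4.1e-14). Its neighbour bab2 changed by 0.65 ± 0.18 in males (FDR 0.0039) and by 0.30 ± 0.16 in females (FDR 0.14), where TRAP had 11.8, 10.8, 10.0 and 9.35 and total mRNA 10.7, 8.6, 8.65 and 9.05, and the female call was lost in 5 of 8 fits without 1 library (FDR 0.25 to 0.37).

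chinmo, a temporal identity factor of mushroom body neurons that also maintains male identity in the testis, had 149, 183, 118 and 262 normalised CPM in male TRAP against 81.8, 148, 194 and 120 in male total mRNA and was not called in males (0.38 ± 0.27). In females 145, 149, 188 and 229 stood against 63.1, 97.4, 95.4 and 117, with no overlap and 6 of 6 exons higher (1.03 ± 0.19, FDR 2.0e-06). Of the cut-type genes, ct, which raises dendrite complexity in sensory neurons, was called in females only (0.68 ± 0.15, FDR 0.00014, 4 of 8 exons, against 0.16 ± 0.23 in males), and onecut was called in both (0.54 ± 0.24, FDR 0.06, and 0.90 ± 0.20, FDR 5.9e-05), in males not without total mRNA replicate 1 (FDR 0.21) or TRAP replicate 1 (FDR 0.27).

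For several genes the answer depended on the exon entry. hth makes a full-length protein and shorter forms that end before the homeodomain. Of 19 entries tested, the first entry (chr3R:10638624-10639568, minus strand, 5′ UTR, where an antisense RNA overlaps and reads without strand cannot be told apart) rose by 0.99 (FDR 0.00037) in males and 1.93 (FDR 1.2e-17) in females. Entries in the middle of the gene, from the second to the ninth, lay between 0.17 and 0.52 in males and 0.59 and 0.74 in females. The entries 3′ of the long exon at chr3R:10581406-10585928 fell to between -0.50 and 0.03 in males, with 2 called lower (-0.50, FDR 0.13, and -0.41, FDR 0.16), and lay between -0.05 and 0.59 in females.

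mamo, a zinc finger factor of mushroom body neuron classes with several alternative last exons, showed a similar dependence. The last exon entries at chrX:13846116-13854372 and chrX:13850848-13854372 (minus strand, coding and 3′ UTR), which share reads, rose by 0.94 (FDR 0.0057) and 0.74 (FDR 0.015) in males and by 1.64 (FDR 1.4e-10) and 1.46 (FDR 9.1e-12) in females. The longest and most abundant entry, another last exon at chrX:13858017-13869705, had 0.00 in males and 0.57 in females (FDR 0.0029). An entry within it, chrX:13865862-13869705, had -0.40 (FDR 0.26) and 0.12 (FDR 0.57).

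In pros the first entry rose by 1.20 (FDR 5.4e-06) and 1.63 (FDR 2.4e-09). The 3 overlapping entries of the last exon ran from 0.02 to 0.65 in males and 0.91 to 1.60 in females. In onecut the most 5′ exon had -0.22 (FDR 0.60) and -0.14 (FDR 0.77), below the last exon given above. In jim 3 and 9 of 14 entries were higher, and the lower calls in both sexes were 2 entries that share nearly all their bases at the end of the coding region (chr3L:22795977-22798478, -0.33, FDR 0.18, and -0.53, FDR 0.036, neither called with library totals), inside a longer entry that was higher in both sexes (0.43, FDR 0.15, and 0.95, FDR 6.6e-08) and overlaps CG14448.

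**Figure D4:**
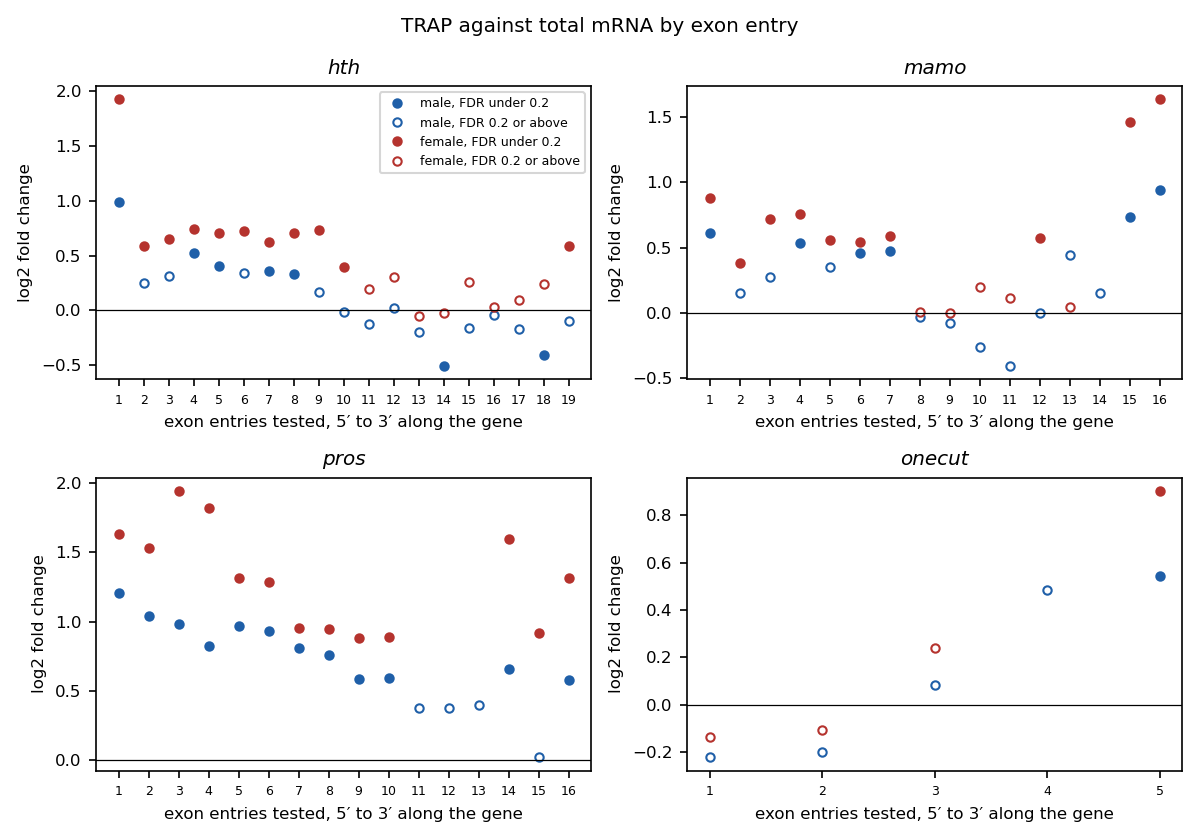
Log2 fold change of TRAP against total mRNA for each exon entry tested in hth, mamo, pros and onecut, in order from 5′ to 3′ along the gene, males and females in separate colours and open symbols for FDR of 0.2 or above. hth entries fall from 0.99 and 1.93 at the 5′ end to -0.10 and 0.59 at the 3′ end, and the last 2 entries of mamo stand highest in females (1.46 and 1.64).

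Over all genes with distinct 5′ and 3′ exons, the most 3′ exon had the larger TRAP fold change in 66.8% in males and 82.6% in females, with median differences of 0.21 and 0.55. Among the identity factors that could be compared this way it was so for 11 of 16 (median 0.27) and 11 of 15 (median 0.47), with the range from -1.09 and -1.34, both hth, to 1.13 (dac) and 1.09 (pdm3). Its part in the calls was not tested.

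As a wider set of the same kind, 96 other transcription factors of neural or segmental lineages were listed, of which 95 were matched. In males 18 of 52 tested were higher and 20 lower, with a median log2 fold change of 0.18, and in females 24 of 46 were higher and 20 lower, with a median of 0.39. These medians lie near those of all genes, 0.14 and 0.33, where those of the 44 were 0.48 and 0.81. No test of that difference between lists was made, and both lists were drawn up with results of these data known.

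Male and female TRAP libraries were then compared directly. All 41 reported genes were tested, and 1 of them, acj6, had a called exon, against 2.11% of all genes with a higher, 2.29% with a lower and 4.39% with either kind of exon in males. On the representative exon these shares were 1.19%, 1.68% and 2.87% of all genes, and acj6 was again the member called. None was higher in males by edgeR's exact test or by DESeq2, which added a lower call for ct, and 24 of 192 exons, in 14 genes, had an unadjusted p under 0.05. The median log2 fold change was -0.01, against -0.05 over all genes.

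acj6 (FBgn0000028, chrX:15350239-15351958, minus strand, 3′ UTR) had 14.3, 17.4, 12.3 and 12.1 normalised CPM in male TRAP and 22.7, 18.7, 30.5 and 31.7 in female TRAP. All 4 male libraries lay below all 4 female ones, by a log2 fold change of -0.83 ± 0.18 (FDR 0.0058). Total mRNA did not show this, with 7.66, 8.69, 12.4 and 7.90 in males and 4.73, 6.85, 7.09 and 11.5 in females (0.34, FDR 0.48). Of 5 entries tested between the TRAP groups 3 were called lower in males: the 2 overlapping 3′ UTR entries (-0.83 and -0.91, FDR 0.0058 and 0.002) and the first exon at chrX:15378189-15379064 (-0.89, FDR 0.05), while the entries of the last coding exon had -0.57 (FDR 0.33) and -0.56 (FDR 0.36). The call held in each of the 8 fits with 1 library left out.

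Against total mRNA, acj6 rose by 1.88 ± 0.25 in females (FDR 3.8e-12), where the groups were far apart, and by 0.62 ± 0.21 in males (FDR 0.016), where the highest total mRNA library exceeded the lowest TRAP library. Of 8 olfactory receptor neuron genes 5 had the higher mean in female TRAP and 3, Or22a, Or42b and Gr21a, in male TRAP. Over the groups 7 of the 8 averaged below 1 normalised CPM, and none could be tested. Their summed level was 3.50 to 16.2 normalised CPM in female TRAP and 1.80 to 3.41 in male TRAP, with Orco, the common odorant co-receptor, at 3.15 and 0.958 on average, Or22a at 0.0998 and 0.187, and Or42b and Gr21a at or below 0.0968 in all 4 group means. Their part in the acj6 difference was not tested. The female library with the highest sum, TRAP replicate 2 at 16.2, had 22.7 for acj6, below replicates 4 and 5.

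On the representative entry the remaining genes gave log2 fold changes between male and female TRAP from -0.57 (tj, FDR 0.37) to 0.48 (eya, FDR 0.49). Single other entries reached -0.77 (ct, FDR 0.21) and 0.75 (pdm3, FDR 0.44). Both Pax6 genes leaned towards males (ey 0.34, FDR 0.75, toy 0.30, FDR 0.78) and mirr, scro and Vsx1 towards females (-0.47, -0.46 and -0.34, FDR 0.32, 0.45 and 0.65), and none was called. The TRAP groups nevertheless did not overlap for tj, at 3.67 to 5.39 normalised CPM in males and 5.88 to 8.19 in females. The same held for scro, Lim3, inv and ara, which were not called either. Without male TRAP replicate 5, which had the highest photoreceptor sum of its group (10664 normalised CPM), ey, otp and toy were called higher and acj6, ct and tj lower in males. Without female TRAP replicate 2 there was 1 higher call, pdm3, and there were 4 lower ones, acj6, ct, inv and jim, and without female TRAP replicate 3 mirr joined acj6.

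**Figure D5:**
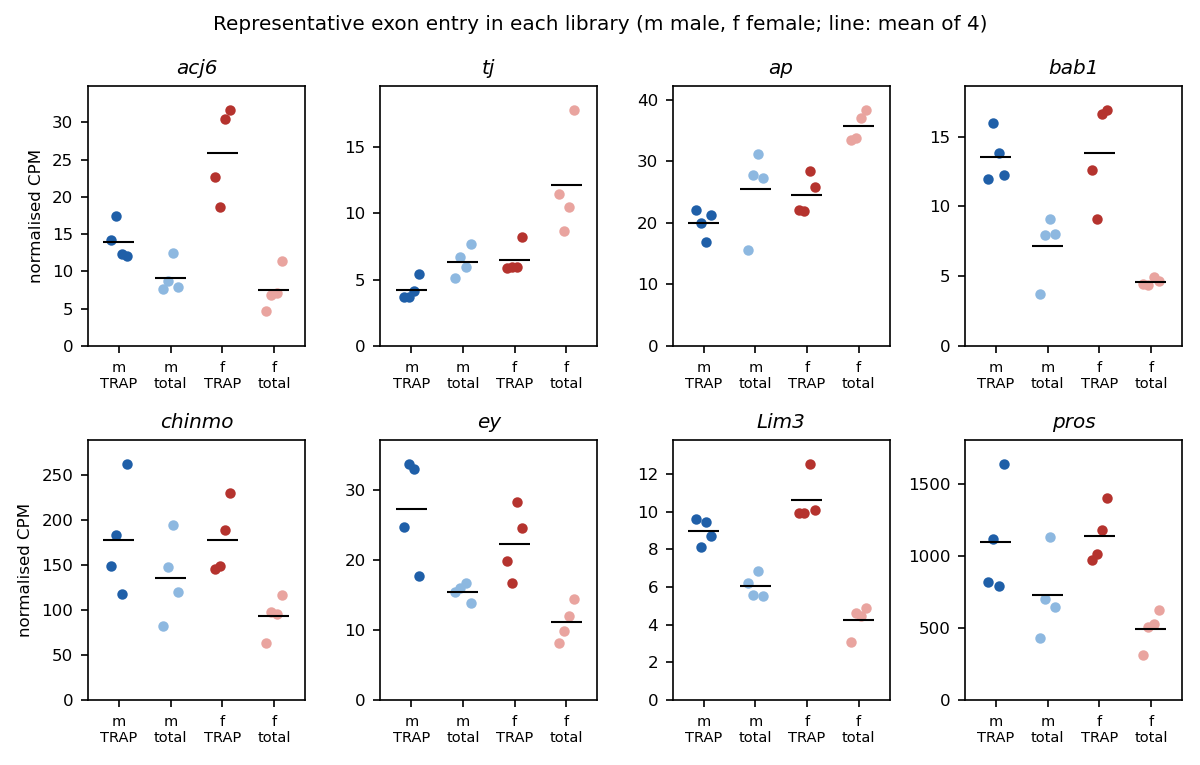
Normalised CPM of the representative exon entry in every library for 8 genes, with axes from 0, each point a library and each line the mean of 4. For acj6 all 4 female TRAP points (18.7 to 31.7) lie above all male TRAP points (12.1 to 17.4), and for tj and ap the female total mRNA points lie above the male ones.

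In total mRNA of whole heads, 34 genes were tested between the sexes. A higher exon in males was found in 14 (41.2%), against 17.9% of all genes, and a lower one in 3 (8.82%), ap, ct and tj, against 17.4%, with 35.0% of all genes called in either direction. On the representative exon 10 were higher and 2 lower, against 13.5% and 10.8% of all genes and 24.3% in either direction. With library totals 28 were higher and 1 lower, so the higher share of calls was 82.4% with TMM and 96.6% without. Among the calls of all genes the higher share was 50.8% with TMM and 88.0% without, so the scaling moved all genes. Neuron markers went the same way: 9 of 11 had a higher exon in male total mRNA. Their summed levels were 1408 to 2458 normalised CPM in males and 1193 to 1747 in females, which overlap. Of 16 photoreceptor markers 12 had a higher exon in males and 1 a lower one. Their sums, 21351 to 26076 in males and 16634 to 20378 in females, did not overlap. Among muscle genes 7 of 8 had a lower exon in males. The median log2 fold change was 0.32 for the identity factors, 0.56 for neuron markers, 0.39 for photoreceptor markers and 0.10 for all genes. The part of these cell types in the calls was not tested.

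The higher genes were ey, toy, Optix, eya, pdm3, Lim3, onecut, scro, hth, SoxN, pros, bab1, chinmo and jim. On the representative entry bab1 differed by 0.71 ± 0.25 (FDR 0.063), pros by 0.62 ± 0.28 (FDR 0.15), chinmo by 0.61 ± 0.25 (FDR 0.13), Lim3 by 0.56 ± 0.19 (FDR 0.067) and ey by 0.54 ± 0.18 (FDR 0.058). Of these, Lim3 was without overlap between the sexes, at 5.51 to 6.85 against 3.10 to 4.91 normalised CPM. In bab1, pros and chinmo replicate 1 of male total mRNA (3.73, 428 and 81.8) lay within or below the female range. That library also had the lowest neuron sum (1408) and the highest photoreceptor sum (26076 normalised CPM) of its group, and without it 21 genes were higher in males.

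Other libraries weighed on this count too. It was 9 without male total mRNA replicate 2, and 5, 7 and 8 without female total mRNA replicates 2, 3 and 4. bab1, chinmo and hth were the genes called in every one of the 8 fits. Over all libraries hth was called through 1 of 19 entries, its first exon (0.67, FDR 0.05), where the antisense RNA named above overlaps. Its representative entry (0.12, FDR 0.78) and its summed entries (0.03, FDR 0.94) were not called. At FDR under 0.05 the count was 2.

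On the representative entry tj had the largest difference of the set between the sexes in total mRNA, although single entries of pros (1.04, FDR 0.095) and chinmo (0.91, FDR 0.012) differed more. tj had 5.09, 6.71, 5.94 and 7.66 normalised CPM in males and 11.4, 8.65, 10.4 and 17.8 in females, which do not overlap (-0.86 ± 0.23, FDR 0.0089, kept in all 8 fits without 1 library). ap was lower in males on 2 overlapping entries of its last exon, by -0.42 ± 0.19 (FDR 0.20) and -0.61 (FDR 0.024), and the first of these calls was lost in 7 of the 8 fits without 1 library (FDR 0.23 to 0.35). For ct the 4 lower entries were in the middle of the gene (chrX:7645780-7646979, -0.60, FDR 0.067, and chrX:7662646-7663554, -0.84, FDR 0.063, each with an identical or overlapping second entry), while its last exon, the most abundant entry, was not called (0.07, FDR 0.88).

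Whether the TRAP effect itself differed between the sexes was tested as an interaction over the 16 libraries. Of 37 genes tested 0 were called, against 0.119% of all genes with a larger effect in males and 0.0477% with a smaller one (0.167% with either, and 0.0835%, 0.0477% and 0.131% on the representative exon). DESeq2 also called 0, and 17 of 165 exons, in 12 genes, had an unadjusted p under 0.05. On the representative entry the strongest evidence was for acj6 (-1.17 ± 0.33), mirr (-0.83 ± 0.24), scro (-1.02 ± 0.30), bsh (-1.04 ± 0.32) and Lim3 (-0.74 ± 0.24), all with a smaller effect in males, and each had an FDR of 0.49 by edgeR's quasi-likelihood test. The median interaction was -0.28, against -0.09 over all genes and -0.60 for neuron markers. Other settings gave calls, all with a smaller effect in males. With the replicate block they were 1 entry each of chinmo (-1.17, FDR 0.13) and hth (-0.93, FDR 0.18), and with gene sums acj6 (-0.95, FDR 0.092) and mirr (-0.71, FDR 0.18). With library totals they were 14: Lim1, Lim3, Optix, acj6, bab1, bsh, chinmo, hbn, hth, jim, mamo, mirr, pros and scro. That scaling moved all genes the same way. Only 2.69% of the calls over all genes were then for a larger effect in males, and the median over all genes was -0.30. Of the genes called in females only, SoxN and ct thus had no call of a difference between the sexes in these fits, chinmo had one with the block and with library totals, mirr with gene sums and library totals, and hbn and scro with library totals.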

How the data were processed

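RNA was sequenced from TRAP and total mRNA fractions of adult heads, 4 libraries per sex and fraction. Per the labels and methods, poly(A) libraries made with a kit that does not mark strand were aligned with STAR 2.7.2a to dm6, and featureCounts tallied unique alignments over exons. The authors deposited these as raw counts for 87508 exon entries, in which overlapping entries of a gene share reads. A deposited RPM table was not used.

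The test was edgeR's exact test (version 4.0.16 in R 4.3.3) with TMM scaling, run on exons that exceeded 2 CPM in a 0.6 share or more of the compared libraries. FDR is the Benjamini-Hochberg value over all exons. SEs and the interaction came from edgeR's quasi-likelihood fit, and alternatives included DESeq2 1.42.0. Scripts were tested on simulated counts. Normalised CPM used TMM factors over 16 libraries (0.706 to 1.28).

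Values are printed per library for the members with the largest TRAP changes in groups without overlap, those called between sexes with the lowest FDR, en and neighbouring paralogs. The members and lists were chosen with earlier results of these data known. scro was matched through its transcripts, and unf of the wider list was not matched. The labels name no batch. In females the deviations of TRAP and total mRNA libraries with the same replicate number correlated (0.25 to 0.58 in 4 pairs), so a fit with the replicate as block was run beside the unpaired tests that are printed. p-values measure the spread between pools of flies.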

Additional observations from a re-analysis of the deposited data

Results flagged for a closer look

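In 3 of the 68 groups of 4 libraries examined, 1 library stood apart from the other 3 by Dixon's criterion, which chance meets in about 1 of 20 groups. The groups were those of 17 genes: the ones with the largest TRAP changes, those called between sexes with the lowest FDR, and en. Other genes with printed values were not examined this way. Lim3 had 12.6 normalised CPM in female TRAP replicate 4, where the others lay between 9.91 and 10.07. otp had 1.27 in female total mRNA replicate 2, below the others at 2.17 to 2.33. tj had 8.19 in female TRAP replicate 5, above the others at 5.88 to 5.97.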

How the results depend on the processing

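Library totals in place of TMM factors moved the median of all representative exons from 0.14 to 0.44 in males, 0.33 to 0.73 in females and 0.10 to 0.39 between the sexes in total mRNA, so directions near 0 are relative to the scaling. For lower members in male TRAP, 7 became 2 with library totals, 4 at FDR under 0.05, 4 with the representative exon only and 10 with the replicate block. Lower members in female TRAP numbered 9 without a filter and 8 with the replicate block. Between TRAP groups the lower count was 2 with DESeq2, RLE factors, CPM above 1 or gene sums and 3 without a filter, and 1 member was higher with CPM above 1 or gene sums. In total mRNA 28 were higher and 1 lower with library totals, 22 higher with the replicate block, and 2 higher at FDR under 0.05. The interaction gave 14 smaller effects in males with library totals, 2 with gene sums, 1 without a filter and 2 with the replicate block, and the cause was not tested. Gene sums reversed en in male TRAP, from 0.48 to -0.011. With 1 library left out, higher and lower counts ranged from 22 to 27 and 5 to 9 in male TRAP, 25 to 29 and 5 to 6 in female TRAP, 0 to 3 and 1 to 4 between TRAP groups, 5 to 21 and 2 to 3 in total mRNA, and 0 to 0 for the interaction. In males and between the sexes the correlations of same-numbered libraries ran from -0.27 to 0.23. For male TRAP and total mRNA replicates 1, 2 and 4 they were -0.02, 0.10 and 0.23. These values cannot show whether male libraries of the same number came from the same pool. For named members 299 values under other settings kept their call, 15 lost it and 1 reversed, and 258 kept and 17 lost it with 1 library left out. Depth limits exons under 0.195 CPM, and members such as exex, Awh, en and inv rest on few counts.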
